A study of Mus musculus with 10 samples.

Results

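The genes described here encode the DNA replication machinery, from the origin recognition complex to the enzymes that join Okazaki fragments, make deoxynucleotides and copy DNA methylation behind the fork. They are a list of 49 named genes, drawn up with earlier results of these data known, and all 49 were on the array among 18193 genes with a symbol of their own. They were represented by 108 of the 45101 probe sets. Livers of male C57BL/6 NHsd mice were profiled on Affymetrix mouse arrays, 5 days after a tail vein injection. The 3 groups were phosphate-buffered saline (PBS, 2 arrays), lipid nanoparticles with a control siRNA (4 arrays) and nanoparticles with siRNAs against the Rab5 genes (4 arrays), both siRNAs at 1.5 mg/kg. The sample titles call the control siRNA scrambled and the series text calls it Luciferase, so it is named control siRNA here. Titles number the livers without saying that each came from a separate mouse, so each p-value reflects only how these particular livers varied, which may be technical in part, and the number of arrays limits precision. Whole liver was assayed, in which fewer cells of a type and less RNA per cell cannot be told apart.

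Replication begins at origins bound by the origin recognition complex, onto which Cdc6 and Cdt1 load the MCM2-7 helicase. Cyclin-dependent kinase and the Cdc7-Dbf4 kinase then turn the loaded helicase into a moving one together with Cdc45, GINS and Mcm10, and polymerases, the PCNA clamp and its loader follow. Many of these genes are transcribed from E2F-bound promoters at the entry into S phase, and most hepatocytes of an adult liver are quiescent.

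Promoter sequences were available in a RefSeq table (build GRCm38.p6) for 41 of the 49 genes; Gmnn, Mcm4, Gins1, Gins2, Gins4, Prim2, Pole and Rfc2 had no entry in it. The 250 bases before each listed start were searched on both strands for the E2F words TTTCCCGC, TTTGGCGC, TTTCGCGC and TTTGCCGC, which may overlap each other. At least 1 word was found in 11 of the 41 genes (26.8%), against 583 of all 27025 genes in the table (2.16%). By the outcome described below, 7 of 25 genes that rose held one (28.0%), as did 4 of 15 that did not pass the test (26.7%). The CCAAT word stood in 25 of the 41 genes (61.0%) and in 37.5% of all genes, and the words TTTGAA or TTCGAA, which form a cell cycle homology region, in 9 of the 41 (22.0%) and in 19.6% of all genes. By outcome, CCAAT stood in 68.0% of the genes that rose and 46.7% of those that did not pass, and TTTGAA or TTCGAA in 3 of 25 and 6 of 15; these splits were not tested. The sequences of 5 genes are printed to show E2F words, in capitals, in 4 genes that rose at least 2-fold, and Mcm10, which fell and carries none. Mcm7 also rose at least 2-fold and holds a word before 1 of its 2 listed starts, and is not printed. Cdt1, Mcm2, Mcm3, Dbf4, Lig1 and Rrm2 rose at least 2-fold too and, like Mcm10, hold no word before any listed start. The Mcm5 window is chr8:75109259-75109508 on the plus strand, Mcm6 chr1:128359706-128359955 on the minus strand, Uhrf1 chr17:56304063-56304312 on the plus strand (1 of 2 listed starts), Cdc6 chr11:98907901-98908150 on the plus strand and Mcm10 chr2:5012792-5013041 on the minus strand. Each reads 5′ to 3′ and ends at the base before the start.
Mcm5: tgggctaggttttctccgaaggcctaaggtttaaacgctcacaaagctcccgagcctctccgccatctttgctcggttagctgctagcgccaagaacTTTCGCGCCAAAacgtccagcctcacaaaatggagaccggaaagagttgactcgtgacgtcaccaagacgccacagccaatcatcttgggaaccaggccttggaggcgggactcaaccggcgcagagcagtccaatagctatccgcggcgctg
Mcm6: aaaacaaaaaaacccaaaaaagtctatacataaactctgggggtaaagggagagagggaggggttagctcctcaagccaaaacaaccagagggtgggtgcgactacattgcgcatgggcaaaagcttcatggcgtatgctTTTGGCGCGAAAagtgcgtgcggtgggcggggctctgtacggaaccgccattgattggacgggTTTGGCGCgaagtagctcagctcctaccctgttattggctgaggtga
Uhrf1: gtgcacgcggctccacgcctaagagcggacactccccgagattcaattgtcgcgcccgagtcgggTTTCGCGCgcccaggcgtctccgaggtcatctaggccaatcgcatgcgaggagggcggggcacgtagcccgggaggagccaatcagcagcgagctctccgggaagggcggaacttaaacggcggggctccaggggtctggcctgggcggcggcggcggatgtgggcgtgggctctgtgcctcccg
Cdc6: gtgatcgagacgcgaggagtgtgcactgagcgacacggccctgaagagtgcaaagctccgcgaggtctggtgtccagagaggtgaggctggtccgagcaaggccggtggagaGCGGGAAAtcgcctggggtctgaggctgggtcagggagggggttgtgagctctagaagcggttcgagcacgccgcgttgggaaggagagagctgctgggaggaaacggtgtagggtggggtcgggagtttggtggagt
Mcm10: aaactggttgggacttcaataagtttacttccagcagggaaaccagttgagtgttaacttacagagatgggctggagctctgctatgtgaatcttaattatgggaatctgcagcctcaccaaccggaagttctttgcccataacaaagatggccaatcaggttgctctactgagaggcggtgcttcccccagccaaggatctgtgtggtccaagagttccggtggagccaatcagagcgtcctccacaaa
Mcm5 holds 2 overlapping words, 153 and 149 bases before the start. Mcm6 holds 3, of which 2 overlap. A word found is a description of the sequence, and its absence says only that these letters are not in this window.

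Array medians ran from 4.29 to 4.37 on the log2 scale. The deposited RMA values had been normalized across arrays, so these medians do not show how alike the livers were. Rab5a, one of the targeted genes, averaged 8.67 ± 0.23 (SD, n = 4) with control siRNA and 6.86 ± 0.40 (SD, n = 4) with Rab5 siRNA, which leaves 28.6%, and Rab5c was left at 25.1%. Rab5b differed by -0.24 (adjusted p = 0.23, limma) and did not pass the test. It averaged 4.34 with control siRNA and 4.10 with Rab5 siRNA, near the median of all values, 4.33, so its difference may be compressed. Hepatocyte markers were bright: Alb lay between 13.89 and 14.14 on every array, and the summed level of 10 markers on the linear scale was 87401 to 89920 in PBS, 87178 to 89901 in control and 86654 to 88613 in Rab5 livers. Alb lies close to the highest of all values, 14.48, where differences may be compressed, and a linear sum is weighted to the brightest genes. These sums therefore do not measure the share of hepatocytes. Rab5 siRNA array 1 stood apart from the other 3 of its group on the first principal component over all genes, at 17.6 against 31.0 to 39.4, with the control and PBS arrays all below 0.

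With Rab5 siRNA, 31 of the 49 replication genes rose relative to control siRNA and 1, Mcm10, fell, while 17 did not pass the test (limma over all 18193 genes, called at adjusted p under 0.05). Over all genes, 9.37% were called higher and 6.69% lower. The median difference of the 49 genes was 0.58 on the log2 scale, against -0.02 for all genes tested, and 44 of the 49 were above 0. Of the raised genes 12 at least doubled, and Mcm5 and Uhrf1 rose over 4-fold. The sizes depend on the probe set: with the mean of each gene's probe sets Mcm5 rose by 1.38 and Uhrf1 by 1.54 on the log2 scale, neither over 4-fold. In 29 genes all 4 Rab5 arrays lay above all 4 control arrays, a pattern met by 10.2% of all genes. The heat map of all members shows this by array.

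**Figure D1:**
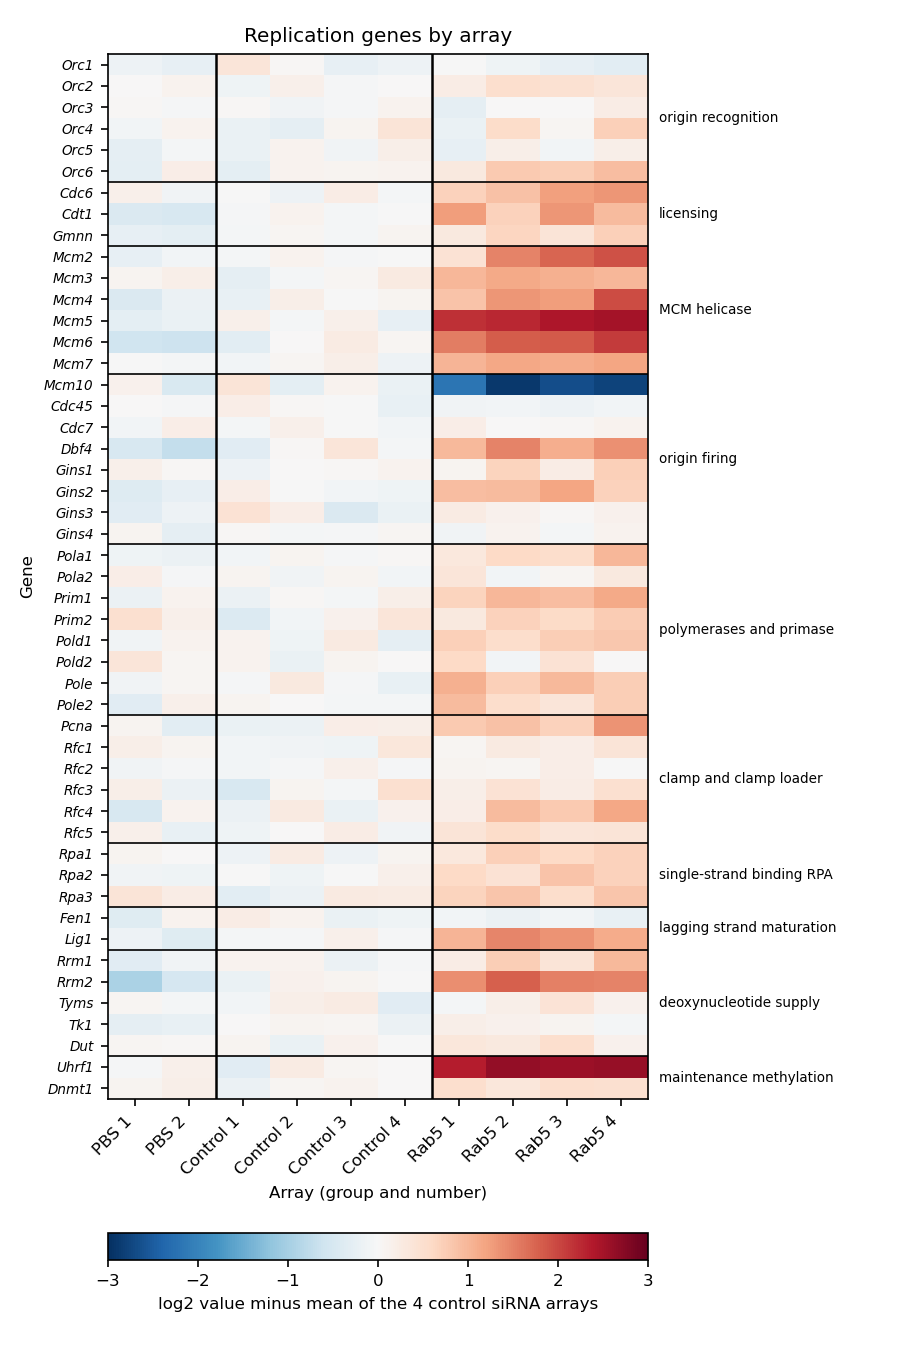
Heat map of the 49 replication genes (rows, grouped by role) in the 10 arrays (columns), coloured by log2 value minus the mean of the 4 control siRNA arrays, red higher and blue lower. The Rab5 columns are red for most rows, with Mcm10 as the one row that is deep blue in all 4, and control and PBS columns are pale.

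The 6 subunits of the replicative helicase, the ring of MCM proteins that unwinds DNA, all rose, by 1.05 to 2.35 on the log2 scale. Mcm5 read 6.12, 5.91, 6.10 and 5.70 on control arrays 1 to 4 and 8.14, 8.21, 8.39 and 8.47 on Rab5 arrays, with 5.66 and 5.77 in PBS livers. Every Rab5 array was more than 2 log2 units above the highest control array. The difference was 2.35 (SE 0.12, 5.08-fold, adjusted p = 3.3e-08, limma). A second probe set of Mcm5 rose by 1.60 (3.04-fold), and the remaining, dim one differed by 0.20 and did not pass.

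Mcm6 read 5.20, 5.52, 5.78 and 5.59 with control siRNA and 7.05, 7.34, 7.35 and 7.61 with Rab5 siRNA, a rise of 1.81 (SE 0.14, 3.52-fold, adjusted p = 1.1e-06, limma). A second probe set of Mcm6 rose by 2.23 (4.70-fold), and the remaining, dim one differed by 0.14. The groups did not overlap in the first, and the PBS livers, at 4.93 and 4.89, lay below every control liver. By the brightest probe set of each gene, Mcm2 was the most variable of the 6 in Rab5 livers (SD 0.67). It read 7.53, 8.59, 8.85 and 9.01 there, against 7.06 to 7.20 with control siRNA. In that probe set array 1 was the lowest Rab5 array yet above every control array. Without array 1 the Mcm2 difference was 1.71, against 1.39 with it (SE 0.23, adjusted p = 8.3e-04, limma). The other Mcm2 probe set did not share this spread, with an SD of 0.23 in Rab5 livers. Its lowest Rab5 array was array 2, at 6.49, and it rose by 1.78 (adjusted p = 1.3e-06, limma). Mcm4 rose by 1.34 (SE 0.18), from 5.52 to 5.92 over control arrays and 6.6 to 7.71 over Rab5 arrays. Mcm7 rose by 1.12 (SE 0.10) and Mcm3 by 1.05 (SE 0.11), and both were called higher with adjusted p = 3.8e-06 and 1.9e-05 in limma.

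**Figure D2:**
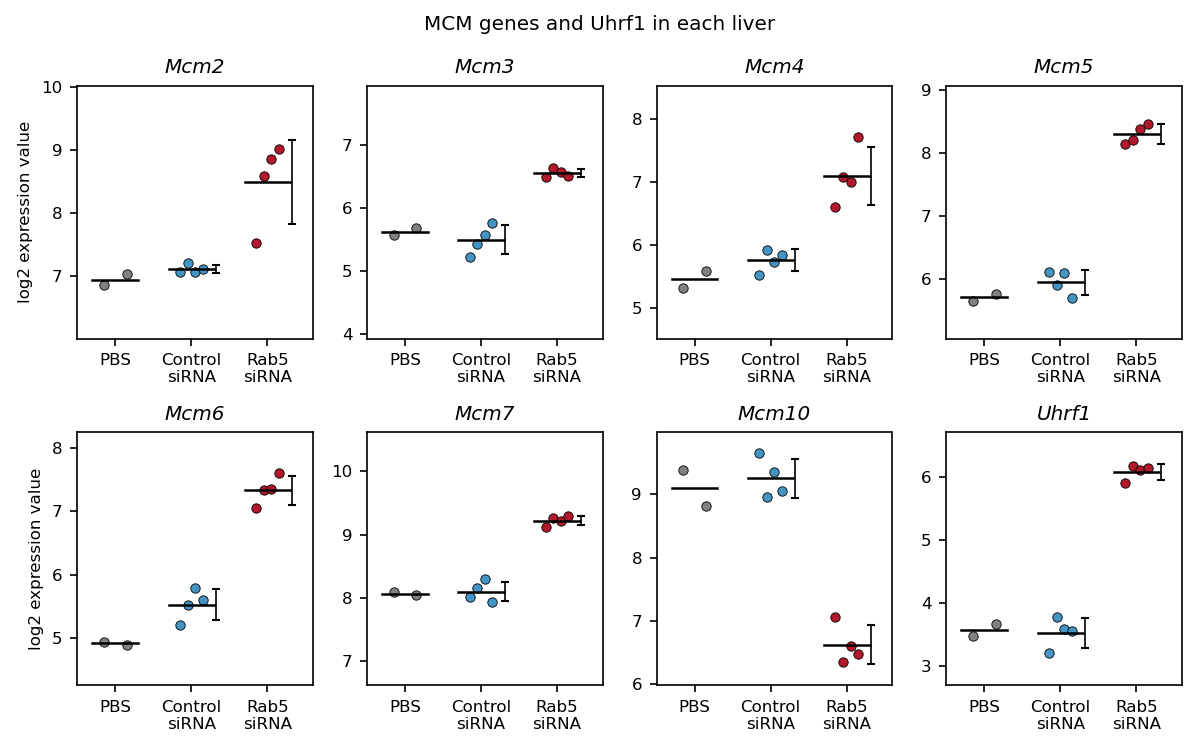
Log2 expression value (vertical axis) of Mcm2 to Mcm7, Mcm10 and Uhrf1 in each liver, by group. Points are arrays, horizontal lines are group means and bars are SD over 4 arrays (none for the 2 PBS arrays), and each panel spans 4 log2 units. Rab5 points lie above all control points in 7 panels and below them for Mcm10.

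Mcm10, a replication factor that binds the helicase and polymerase alpha and is not part of the MCM2-7 ring, moved in the other direction. It read 9.65, 8.96, 9.36 and 9.06 with control siRNA and 9.39 and 8.81 in PBS livers, but 7.06, 6.35, 6.6 and 6.48 with Rab5 siRNA. All 4 Rab5 arrays lay below all others. The mean of Mcm2 to Mcm7 was lowest of the 4 Rab5 arrays on array 1 (7.49, against 7.85 to 8.10). By the brightest probe set, array 1 had the highest Mcm10 of them. The difference was -2.63 (SE 0.18, 6.20-fold lower, adjusted p = 5.5e-07, limma). Of its 3 probe sets, the brightest gave that value, the next fell by 0.84 (adjusted p = 5.0e-04), and the dimmest differed by -0.22 (adjusted p = 0.34). The last read between 2.49 and 3.23 on all arrays, where differences are compressed. The probe sets did not share the order of the Rab5 arrays. In the second brightest, array 1 was the lowest of the 4, at 3.33 against 3.47 to 3.60. In the dimmest it was the highest, at 2.68 against 2.57 to 2.63. No member had probe sets called in both directions. Of its nearest neighbours in the RefSeq annotation, chosen after its values were seen, Phyh differed by -0.84 (adjusted p = 3.3e-04), Ucma by -0.03 (adjusted p = 0.88), and Optn was not measured. Symbols of the Rik, Gm, LOC and BC kinds were left out when likeness was ranked. Among the other genes, those most like Mcm10 over the 10 arrays were Mtarc1 (Pearson r = 0.99), Ephx2, Tnfaip8l1, Ahcy and Slc1a2, each with r of at least 0.985. The 10 arrays share their 3 groups. With each of the 3 groups, PBS included, centred on its own mean, r was 0.66 to 0.84 for these genes. For the mean of Mcm2 to Mcm7 all 49 replication genes were left out as well, so none of them could be ranked. Outside that list, likeness to this mean was highest for Atpif1 and Pclaf (r = 0.997 for both), then Enc1, Krt8 and Atad2.

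Upstream of the helicase, the 3 licensing genes all rose. Cdt1, which brings the helicase to the origin, read 6.85, 6.98, 6.83 and 6.89 with control siRNA and 8.13, 7.58, 8.21 and 7.84 with Rab5 siRNA (difference 1.05, SE 0.13, adjusted p = 5.2e-05, limma). Gmnn, the geminin that holds Cdt1 in check, rose by 0.51 (SE 0.11). Cdc6, which loads the helicase together with Cdt1, rose by 1.03 (SE 0.14, adjusted p = 1.4e-04), from 2.34 ± 0.15 to 3.37 ± 0.30 (SD, n = 4 each). Both levels lie under the table's median of 4.33, so this probe set is dim and its change may be compressed; it has no second probe set.

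In the origin recognition complex, which marks the origins, 2 of 6 subunits passed the test and 4 did not. Orc6 rose by 0.69 (SE 0.15, adjusted p = 0.0058, limma), with 4.01 to 4.39 over control and 4.59 to 5.22 over Rab5 arrays. Orc2 rose by 0.38 (SE 0.10, adjusted p = 0.017, limma), and lost its call in 3 of the 8 fits that left out 1 siRNA array. Orc1 differed by -0.17, Orc4 by 0.29, and Orc3 and Orc5 by less than 0.01 from control, all with overlapping groups.

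Of the 8 factors that fire origins, 3 rose and 1, Mcm10, fell. Dbf4, the activating partner of the Cdc7 kinase, read 5.24, 5.61, 5.93 and 5.51 with control siRNA and 6.56, 7.07, 6.66 and 6.95 with Rab5 siRNA (difference 1.24, SE 0.15, adjusted p = 5.3e-05, limma), whereas the kinase gene Cdc7 differed by 0.09. The GINS complex, part of the active helicase, was uneven: Gins2 rose by 0.93 (SE 0.12), Gins1 by 0.42 (SE 0.14, adjusted p = 0.049), and Gins3 and Gins4 differed by 0.13 and 0.02. Gins1 lost its call in 6 of the 8 fits that left out 1 siRNA array. Cdc45, the third component of the moving helicase, differed by -0.11 in its brighter probe set and rose by 0.47 (adjusted p = 0.012) in the other, so the gene has no settled direction here.

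**Figure D3:**
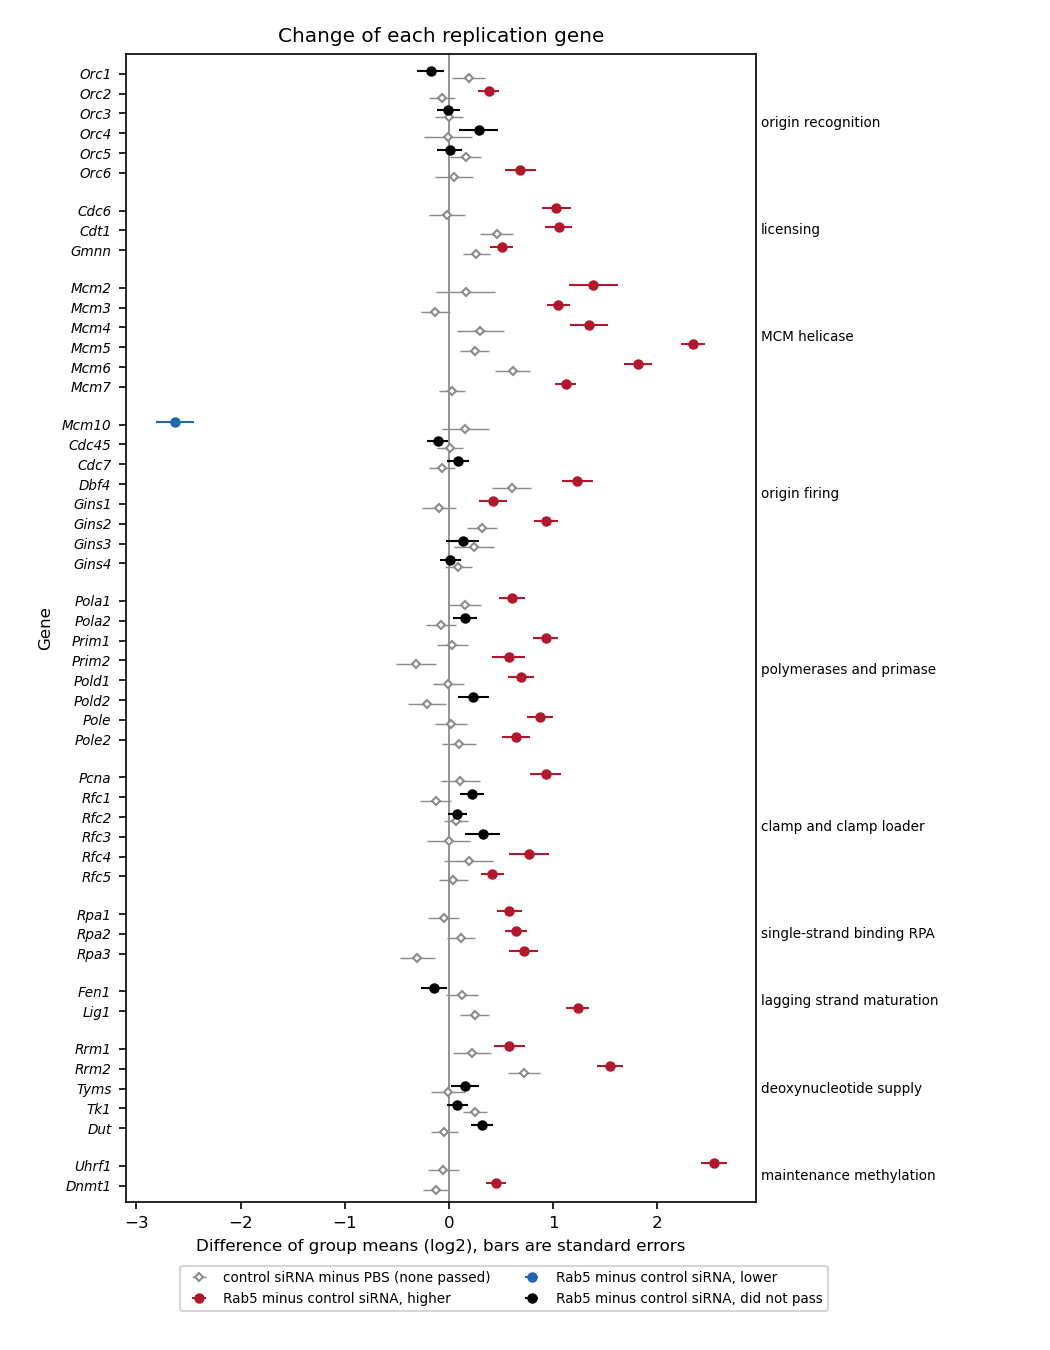
Difference of group means on the log2 scale (horizontal axis) with standard errors for each replication gene, by role: filled points are Rab5 minus control siRNA (red higher, blue lower, black not passed) and open diamonds control siRNA minus PBS. Every licensing and MCM helicase gene is red, the origin recognition and clamp loader rows are mixed, and no diamond passed.

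Among the 8 polymerase and primase genes, 6 rose and 2 did not pass. Pole, the catalytic subunit of the leading strand polymerase, read 4.59, 4.90, 4.59 and 4.38 with control siRNA and 5.69, 5.32, 5.58 and 5.36 with Rab5 siRNA (difference 0.87, SE 0.12, adjusted p = 2.1e-04, limma), and its partner Pole2 rose by 0.65. Prim1, the catalytic subunit of the primase that lays down RNA primers, rose by 0.93 (SE 0.12). Pold1 rose by 0.69, Pola1 by 0.61 and Prim2 by 0.58 (adjusted p = 0.022, limma). Prim2 lost its call in 5 of the 8 fits that left out 1 siRNA array. Its arrays overlapped, since Rab5 array 1 read 5.01 and control array 4 read 5.08. With quantile normalization, which took another probe set of nearly the same brightness, Prim2 stood at -0.22. Its remaining probe set rose by 0.66 (adjusted p = 0.0062, limma), with all 4 Rab5 arrays above all control arrays. The accessory subunits Pola2 and Pold2 differed by 0.16 and 0.24.

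Pcna, the sliding clamp that tethers the polymerases, read 7.29, 7.31, 7.68 and 7.66 with control siRNA and 8.27, 8.37, 8.19 and 8.82 with Rab5 siRNA, without overlap (difference 0.93, SE 0.15, adjusted p = 6.5e-04, limma). Of the 5 genes of its loader, Rfc4 rose by 0.77 (SE 0.19) and Rfc5 by 0.42 (SE 0.11, adjusted p = 0.020), and Rfc1, Rfc2 and Rfc3 did not pass, at 0.22, 0.08 and 0.33. Rfc5 lost its call in 3 of the 8 fits that left out 1 siRNA array. All 3 subunits of replication protein A, which coats single-stranded DNA, rose by 0.58 (Rpa1), 0.65 (Rpa2) and 0.72 (Rpa3).

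Of the lagging strand pair, Lig1, the ligase that seals Okazaki fragments, rose by 1.24 (SE 0.11, adjusted p = 5.4e-06, limma), from 5.56, 5.59, 5.77 and 5.58 to 6.65, 7.10, 6.97 and 6.74. Fen1, the flap nuclease, had probe sets that disagreed: the brighter gave -0.14 (adjusted p = 0.50) and the other 1.05 (adjusted p = 6.9e-04). In the supply of deoxynucleotides, Rrm2, the small subunit of ribonucleotide reductase, rose by 1.55 (SE 0.12, adjusted p = 1.8e-06), with 6.52 to 6.84 over control arrays and 8.11 to 8.51 over Rab5 arrays. The large subunit Rrm1 rose by 0.58 (SE 0.15, adjusted p = 0.014) and lost its call without Rab5 array 2. Tk1 differed by 0.08, Tyms, dim on all 4 of its probe sets, by 0.16, and Dut by 0.32 (adjusted p = 0.057).

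By the brightest probe set of each gene, the largest rise was that of Uhrf1, which binds newly copied DNA and recruits the maintenance methyltransferase. It read 3.21, 3.78, 3.59 and 3.56 with control siRNA and 5.90, 6.17, 6.11 and 6.14 with Rab5 siRNA, a difference of 2.55 (SE 0.12, 5.84-fold, adjusted p = 2.9e-08, limma). Its control level lay under the table's median and its Rab5 level above. Its other, dimmer probe set rose by 0.53 (adjusted p = 0.0019), and with the mean of probe sets Uhrf1 stood at 1.54, below Mcm4 at 1.61 and Mcm2 at 1.58. Dnmt1, the methyltransferase itself, rose by 0.46 (SE 0.10, adjusted p = 0.0045) in its brightest probe set and by 1.15 and 1.10 in the other 2.

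Over probe sets rather than genes, 52 of 108 were called higher and 2 lower, both of Mcm10. Of the 76 whose mean lay above the table median, 47 were higher and 1 was lower. Of the 32 at or below it, 5 were higher and 1 lower. The shares called among all named probe sets are not given here, so this split by brightness only describes these 108. Cdc45, Fen1 and Rfc3 were not called by their brightest probe set but had another that was called higher. The plot of probe sets shows the differences against signal.

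**Figure D4:**
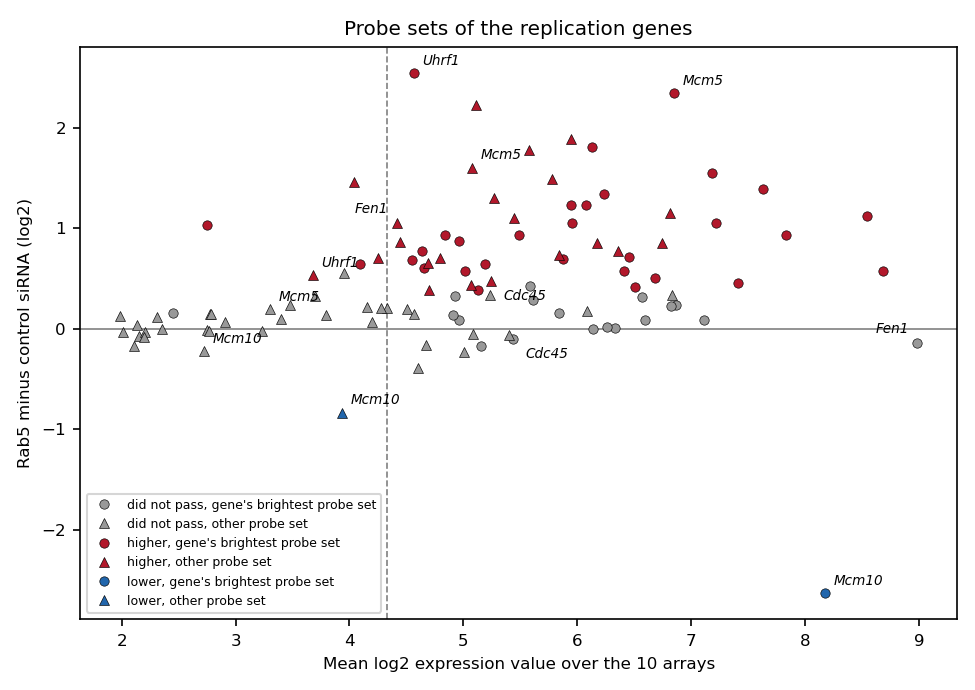
Rab5 minus control siRNA (vertical axis, log2) against mean log2 value over the 10 arrays (horizontal axis) for the 108 probe sets of the replication genes; circles are each gene's brightest probe set, triangles the others, and the dashed line is the table median of 4.33. Most points above the median are red, and Mcm10 lies alone at the bottom right.

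Between arrays of the Rab5 group, array 1 was the lowest for 28 of the 49 genes and array 4 the highest for 21. The median deviation from the control mean was 0.34, 0.60, 0.50 and 0.71 on arrays 1 to 4. Without array 1, 31 genes were called higher, as with it, and without array 2, 26 were.

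Neither comparison with the PBS livers is independent of the first, since they share control or Rab5 arrays. Control siRNA against PBS gave no call among the 49 or among all genes (0%; limma), with 814 genes at an unadjusted p under 0.05, 5 of them replication genes, all higher with control siRNA. The alternatives tried called 0 to 51 of all genes and no replication gene. The largest of these differences was 0.72, in Rrm2 (adjusted p = 0.39). In Rab5 siRNA against PBS, 26 of the 49 rose, where 6.46% of all genes did, and Mcm10 fell, where 5.18% of all genes did; the median was 0.53. Orc2, Gins1, Prim2, Rpa3 and Dnmt1 were called against control siRNA and not against PBS. The PBS group has 2 arrays, and the difference between these comparisons was not tested.

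The lists of other cell cycle genes gave the following, where 9.37% of all genes rose and 6.69% fell. No list was tested against these shares. Of 26 further fork and origin proteins, 10 rose and none fell, among them Top2a (2.15), a topoisomerase that untangles copied DNA, Pclaf (2.07), a PCNA-binding protein, Topbp1 (0.94), which helps load Cdc45, and the fork protector Timeless (0.84). Of 7 measured genes of replication-coupled chromatin assembly, 2 rose, Asf1b (1.18) and Nasp (0.50). Among 9 other deoxynucleotide enzymes, Dck (1.42) and Dtymk (0.70), kinases of deoxynucleosides and dTMP, rose and Shmt1 fell by 0.52.

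Of 7 genes of licensing turnover, Fbxo5, an inhibitor of the anaphase-promoting complex, rose by 1.08 and Rbx1 fell by 0.36. In a list of 7, 1 call each way is about what the shares over all genes give. In the E2F and pocket protein list, 3 of 14 rose and 1 fell: Rbl1 rose by 2.06, E2f7 by 0.51 and E2f1 by 0.32, and Rbl2, another pocket protein, fell by 0.98. Among 8 S phase cyclins and inhibitors, Ccna2, the S phase cyclin, rose by 2.08 and Cdkn1a, an inhibitor of cyclin-dependent kinases, rose by 2.63. Of 10 checkpoint genes 3 rose: Chek1 (1.24), Wee1 (0.71) and Chek2 (0.61).

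Of 21 mitosis genes, 19 rose, where 9.37% of all genes did. The median of the list was 1.90, against 0.58 for the replication genes, and Birc5 (2.72), Ube2c (2.67), Ccnb2 (2.47) and Mki67 (2.37) led. With control siRNA against PBS the mitosis list had a median of 0.61 and the replication genes 0.05, neither with a gene called. The difference between the lists was not tested.

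Markers of liver cell types were counted in the same comparison. Of 14 Kupffer cell and macrophage markers, 8 rose with Rab5 siRNA, among them Cd68 (1.08) and Marco (1.09). Their summed linear level was 7599 to 8407 in PBS, 7294 to 8951 in control and 9872 to 13627 in Rab5 livers, with the lowest of the Rab5 values on array 1. Of 12 sinusoidal endothelium markers 1 rose and 4 fell, 2 of 12 stellate cell markers rose, 2 of 7 erythroid markers fell (Alas2 by 1.67), and 1 of 11 lymphocyte markers fell (Ighm by 1.38). The erythroid sum was 609 to 766 in PBS, 578 to 737 in control and 232 to 361 in Rab5 livers. In the same order the endothelial sum was 2287 to 2451, 2542 to 2670 and 2070 to 2501. The PBS livers thus lay below all control livers and within the Rab5 range in that sum. Against PBS, 1 of the 12 endothelial markers fell with Rab5 siRNA and none rose. The stellate sum was 2384 to 2419, 2316 to 3034 and 2586 to 3624. Of the monocyte and neutrophil markers 1 of 7 rose, of the cholangiocyte markers 1 of 6, and of 10 hepatocyte markers 1 rose (Ahsg by 0.69) and 2 fell (Apoa2 by 0.33 and Cps1 by 0.35). Over all genes 9.37% rose and 6.69% fell, so 1 call in a list this short is about what those shares give. The lowest Kupffer marker value on any array was 5.43 on the log2 scale, above the table median, and the part of these cells in the changes of the replication genes was not tested.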

How the data were processed

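The deposited table holds log2 expression values per probe set, which the authors made with RMA in Affymetrix Expression Console and Partek 6.6, per the submitters' processing notes; the files' genome build is not given in the sources used here. Its 45101 probe sets include 34945 with 1 gene symbol, 932 with several, 9160 without a name here and 64 control probe sets; only those with 1 symbol were used. Each gene was represented by its probe set with the highest mean over the 10 arrays, with no filter on low values, which gave 18193 genes. Groups were compared with limma 3.58.1 in R 4.3.3 (1 mean per group over all 10 arrays, eBayes, Benjamini-Hochberg adjustment over all genes, called at adjusted p under 0.05); the steps were tested on simulated data. Probe set values were tested the same way over all named probe sets. Values are log2 unless called linear, and no level was compared between probe sets. All replication genes, up to 4 called genes of each other list and the 5 most similar genes were named by rule. The genes and lists were chosen with earlier results of these data known. Alternatives covered the filter, the probe set per gene, normalization, prior variance, array weights, the arrays in the fit, the replicate block and leaving out arrays.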

Additional observations from a re-analysis of the deposited data

Results flagged for a closer look

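In 5 of 98 groups of 4 arrays (49 genes in the control and Rab5 groups), 1 array stood far from the other 3, and chance alone gives about 1 in 20. Orc6 was lowest on control siRNA array 1, at 4.01, with the nearest other array at 4.38. Rfc1 was highest on control array 4, at 7.04, with the nearest at 6.63. Rfc5 was highest on Rab5 array 2, at 6.90, with the nearest at 6.73. Lig1 was highest on control array 3, at 5.77, with the nearest at 5.59. Dnmt1 was lowest on Rab5 array 2, at 7.54, with the nearest at 7.69. Their causes were not tested.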

How the results depend on the processing

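Of 926 values of single replication genes under the alternatives, 864 kept their direction and call and 24 changed sign. Among those that kept their direction, 31 lost the call and 7 gained one. Some of the 24 changed call as well: Prim2 lost its call with quantile normalization. Fen1 gained one with the mean of probe sets and with the most variable one, and Cdc45 with the latter. Single genes were not followed at the 1.5-fold minimum or in the fits without a PBS array. Mcm10 was called lower in all 19 other alternatives, by 1.23 to 2.78. Of the 32 called genes, 25 kept their call in each of these in which they were tested. Orc2, Gins1, Pola1, Prim2, Pole2, Rfc5 and Rrm1 did not. Replication genes called higher against control siRNA numbered 26 to 31 when 1 array was left out (26 without Rab5 array 2) and 23 to 32 otherwise (23 at a 1.5-fold minimum). All genes called in that comparison numbered 1770 without the siRNA arrays numbered 2 and 1429 at a 1.5-fold minimum, against 2922. Against PBS, control siRNA called 2 genes with quantile normalization, 4 with array weights, 51 with the replicate block, 5 without the siRNA arrays numbered 1 and 0 to 18 when 1 array was left out. Rab5 siRNA against PBS called 1088 (without PBS array 1) to 2520 genes when 1 array was left out, against 2117, and 20 to 26 replication genes.

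Sign changes were in genes near 0 or with probe sets that disagree. Orc3 was 0.018 with array weights, 0.090 without arrays numbered 1 and -0.083 to 0.080 leaving 1 array out. Orc5 was -0.049 with quantile normalization, -0.011 without arrays numbered 2 and -0.055 to 0.090 leaving 1 out. Gins4 was -0.037, -0.033 and -0.018 to 0.054 in the same settings, and Gins3 -0.012 to 0.28 leaving 1 out. Cdc45 was 0.18 with the mean of probe sets and 0.47 with the most variable one, Fen1 0.45 and 1.05, and Dut -0.035 and -0.39. Prim2, the only called gene to change sign, was -0.22 with quantile normalization, under which another, nearly equally bright probe set of the gene was taken.

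Array numbers were not taken to pair the livers, since not every same-number correlation was above 0.1. The deviations of control and Rab5 arrays with the same number correlated at 0.35, 0.0994, 0.16 and 0.27. For arrays of different numbers the range was -0.29 to 0.16. The arrays numbered 2 missed the cut narrowly, so these values do not settle whether the livers were paired. Of the control arrays 3 of 4 were most like the Rab5 array of their own number, a hint from the data that numbers may share something, and the Gapdh 3'-5' difference was highest on array 2 of each group (2.58, 2.86 and 2.67). With the replicate block 3554 of all genes were called in Rab5 against control siRNA, where the main fit called 2922. Under it 32 replication genes were higher, Dut among them (adjusted p = 0.040, limma), and 1 lower. Signal limits Cdc6, Tyms and Pole2, whose probe sets lie at or below the table median.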
